A study of Mus musculus with 6 samples.

Results

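The Id inhibitors and E proteins are 6 genes, Id1, Id2 and Id3 on the inhibitor side and Tcf3, Tcf4 and Tcf12 on the E-protein side. They were chosen by name, keeping every probe set of the array annotated to that gene alone, which gave 19 probe sets, 5 for Id genes and 14 for E-protein genes, among 18193 genes with 34945 such probe sets. Gene expression was measured on 6 arrays of LT-HSCs, long-term haematopoietic stem cells of the bone marrow that sustain blood formation. They were gated as Lin-, Sca1+, CD150+ and CD48- at 8 weeks of age. The 3 double knockout (dKO) arrays came from mice with floxed c-myc and N-myc genes and MxCre, a recombinase whose promoter answers to interferon and which acts in many blood cells and in other organs. The 3 control arrays came from mice with the same floxed genes and no recombinase, so the deletion and the presence of the recombinase cannot be told apart. Both groups were of mixed background and had 2 daily doses of pI-pC, a synthetic double-stranded RNA that induces interferon, with the last given 3 days before the marrow was taken. Each array held RNA of its own pool, of 3 mice for a dKO array and 2 for a control array. The label of control replicate 2 writes M-Myc where the other arrays have N-myc. The comparison asks how transcripts of stem cells differ shortly after loss of both Myc genes.

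E proteins are basic helix-loop-helix (HLH) transcription factors that bind the DNA sequence CANNTG, called an E-box, as dimers with each other or with tissue-restricted partners. Id proteins have the HLH dimerization domain but lack the basic region that touches DNA, so an E protein held by an Id protein does not bind its sites. In blood formation E proteins drive B and T lymphoid development and restrain stem cell proliferation, while Id1 and Id2 are known for keeping stem and progenitor cells uncommitted and Id2 for the development of natural killer, innate lymphoid and some dendritic cells. The gene symbols need care, since Tcf3 encodes E2A (E12 and E47), Tcf4 encodes E2-2 and Tcf12 encodes HEB. By their Entrez identifiers none of the 14 probe sets belongs to Tcf7l1 or Tcf7l2, the HMG-box factors of Wnt signalling that were once called Tcf3 and Tcf4.

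Values are log2 expression values, so a difference of 1 is a 2-fold change. Array medians lay between 5.90 and 5.97, and 3 control probe sets for a bacterial transcript lay between 2.13 and 3.92. They are taken here as negative controls from their name and low values, which no source used here states, so a value in that range is treated as background on that assumption. Arrays of 1 group correlated at 0.974 to 0.981 and arrays of different groups at 0.956 to 0.969. The Myc probe set fell by 2.93 in the dKO arrays, to 7.43 (limma adjusted p = 0.00137). Of 3 Mycn probe sets, 1417155_at fell to a dKO mean of 3.46 in the negative control range, by at least 119-fold (adjusted p = 2.34e-05). The probe set 1425922_a_at fell by 1.61 to 7.33 (adjusted p = 0.00938), and 1425923_at differed by -0.08 (adjusted p = 0.858). The Myc probe set and Mycn 1425922_a_at thus stayed above the array medians in dKO arrays. How complete the deletion was in the pools was not tested. Of the sort markers, Slamf1 (CD150) was seen, at 9.16 ± 0.16 in control and 9.24 ± 0.25 in dKO arrays (SD, n = 3 each). Ly6a, which encodes Sca1, had no probe set annotated to it alone, so Sca1 was not read. Cd48, which encodes the surface protein the gate excludes, was nevertheless read at 8.25 ± 0.21 and 9.41 ± 0.34, a rise of 1.16 ± 0.21 (SE, log2, limma adjusted p = 0.0214). The spiked poly-A controls of control replicate 2 stood apart, with a mean of 10.51 against 11.94 and 12.00 in the other controls and values from 11.22 up to 11.34 in dKO arrays. Gapdh read higher by its 3' than its 5' control probe set, a measure of RNA integrity, by 2.12 to 2.36 in the controls against 2.39 to 2.47 in dKO arrays. The part of that gap in the results that follow was not tested. In sorted pools, fewer cells of a type and less RNA per cell cannot be told apart.

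Id2 rose strongly in the dKO arrays, Id1 rose about 2-fold, and neither Id3 nor any of the 3 E-protein genes passed the test. Of the 5 Id probe sets 4 rose and 0 fell, against 3.57% of all probe sets on the array that rose at a limma adjusted p under 0.05. Of the 14 E-protein probe sets 0 rose and 0 fell, against 6.99% called in either direction (3.41% lower). Among the 14, 3 had an unadjusted limma p under 0.05. The share of all probe sets under that unadjusted limit was not counted. Such counts, here and for the lists below, therefore cannot show an excess. By 1 probe set a gene, the one with the highest mean over the 6 arrays, 2 of 3 Id genes and 0 of 3 E-protein genes rose, where 4.49% of 18193 genes did. The median difference was 1.10 over the Id probe sets and -0.10 over the E-protein probe sets, beside -0.01 over all probe sets. Groups did not overlap at 4 of 5 Id and 5 of 14 E-protein probe sets, against 27.4% of the array.

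Id2, the Id protein of innate lymphocytes and many progenitors, has 3 probe sets, and all of them rose. The probe set 1422537_a_at read 5.16, 5.66 and 5.42 in control replicates 1 to 3 and 8.53, 8.29 and 8.25 in dKO replicates 1 to 3. Every dKO array thus lay more than 2 log2 units above every control array, and all control values lay under the array medians. The change was 2.94 ± 0.17 (SE, log2), a 7.68-fold rise with a 95% interval of 2.53 to 3.35 on the log2 scale (limma adjusted p = 7.94e-04).

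A larger step appeared at the Id2 probe set 1435176_a_at, with 3.59, 4.12 and 3.62 in control arrays and 9.11, 8.67 and 8.67 in dKO arrays. The control mean, 3.78, lay in the range of the negative controls, with control replicate 2 just above that range, while all dKO values were above the array medians. The measured change of 5.04 ± 0.21 (SE, log2, limma adjusted p = 3.62e-04) ranked 5 among the rises of the 45037 probe sets. With values under the highest negative control value raised to it, a treatment chosen after seeing the data, the difference was 4.83 (adjusted p = 0.00263), so the rise was at least 28.4-fold.

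The remaining Id2 probe set, 1453596_at, was dim, with 4.24, 4.27 and 4.33 in control and 5.50, 5.24 and 4.78 in dKO arrays. Its groups did not overlap, and the change was 0.89 ± 0.20 (SE, log2, limma adjusted p = 0.0414). That call was lost when any array but dKO replicate 3 was left out, with an adjusted p of up to 0.12. The 3 Id2 probe sets agreed in direction and differed in size. Their mean gave a change of 2.96 ± 0.16 (SE, adjusted p = 1.79e-04 among the means of all genes).

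Id1, which answers to BMP signals and is known for its role in stem cell maintenance, has 1 probe set, 1425895_a_at. Its values were 5.88, 5.62 and 5.67 in control arrays and 7.02, 6.86 and 6.59 in dKO arrays. All control values lay below the array medians and all dKO values above them. Id1 rose by 1.10 ± 0.16 (SE, log2), or 2.14-fold, with a 95% interval of 0.72 to 1.48 (limma adjusted p = 0.0115). It stayed past the threshold with any of the 6 arrays left out, at an adjusted p of up to 0.046. For the Id1 probe set and each Id2 probe set an exact permutation test, two-sided, gave p = 0.1, which is the lowest value possible with 3 arrays a group.

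Id3, the Id protein most tied to lymphocyte receptor signals, read 5.95, 5.78 and 5.78 in control arrays and 6.25, 5.74 and 5.64 in dKO arrays. The groups overlapped, with dKO replicate 1 the highest of the 6 and dKO replicates 2 and 3 the lowest. The difference was 0.04 ± 0.19 (SE, log2, limma adjusted p = 0.936), with a 95% interval of -0.41 to 0.48 that leaves out a rise of the size seen for Id1. Id4, the last family member and no part of the 6, had its brightest probe set at 5.59 ± 0.15 in control and 6.12 ± 0.27 in dKO arrays (SD, n = 3), a difference of 0.54 that did not pass (adjusted p = 0.134), and its 2 other probe sets lay in the negative control range in both groups.

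**Figure D1:**
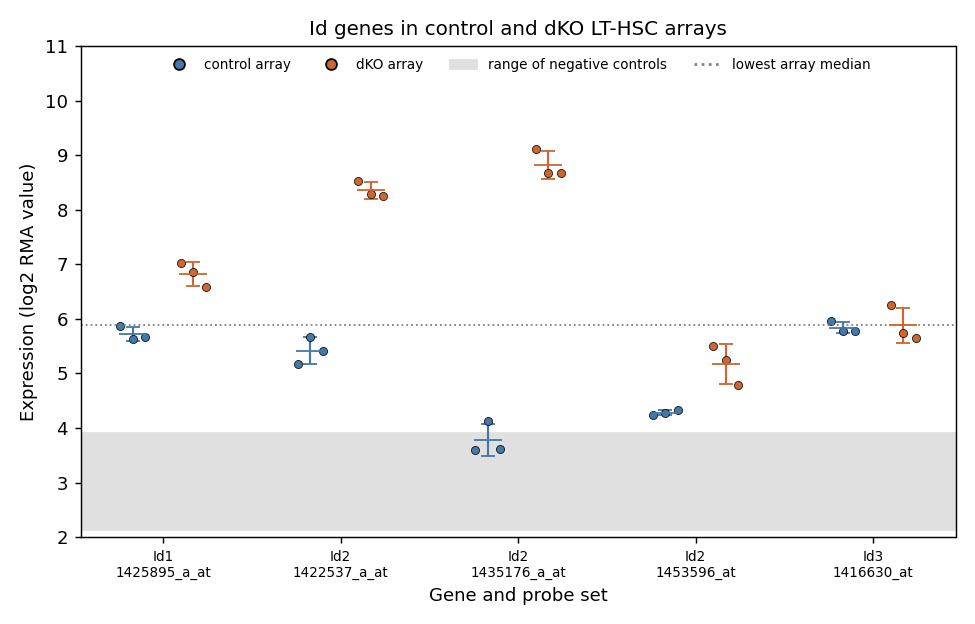
Log2 RMA values of the 5 Id probe sets in the 3 control and 3 dKO arrays. Points are arrays, the wide bars are group means with SD whiskers, the grey band is the range of the negative controls and the dotted line is the lowest array median. The dKO points lie above all control points at the Id1 and the 3 Id2 probe sets and overlap them at Id3, and the control mean of 1435176_a_at lies inside the grey band.

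The sequences before the transcription start are shown for Id2 and Id3, the Id genes with the greatest and the smallest change. They are the 250 bases before the RefSeq start on GRCm38.p6, at chr12:25096093-25096342 on the minus strand for Id2 and chr4:136143572-136143821 on the plus strand for Id3, written 5' to 3'. Capitals mark CCAAT, a box bound by the factor NF-Y, CANNTG, the E-box, and GGCGCC, a GC element that BMP-activated SMAD proteins can bind, each searched on both strands.
Id2: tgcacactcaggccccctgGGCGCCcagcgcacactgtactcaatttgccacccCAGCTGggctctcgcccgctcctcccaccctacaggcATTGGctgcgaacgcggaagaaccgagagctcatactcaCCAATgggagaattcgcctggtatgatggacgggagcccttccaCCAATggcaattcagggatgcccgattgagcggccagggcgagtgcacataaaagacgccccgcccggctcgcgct
Id3: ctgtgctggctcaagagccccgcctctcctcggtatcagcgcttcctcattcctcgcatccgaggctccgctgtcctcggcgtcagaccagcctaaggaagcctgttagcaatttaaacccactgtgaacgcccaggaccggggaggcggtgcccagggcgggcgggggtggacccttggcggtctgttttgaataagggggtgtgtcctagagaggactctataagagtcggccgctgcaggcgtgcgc
The Id2 stretch holds 3 CCAAT boxes, which begin 159, 120 and 76 bases before the start, 1 E-box at 196 and 1 GGCGCC at 231. The Id3 stretch holds none of these. Among 32851 RefSeq starts, 33.8% have a CCAAT, 66.2% a CANNTG and 9.59% a GGCGCC in the same window. Neither stretch has CACGTG, the form of the E-box that Myc and Max prefer (6.02% of starts), or TTCNNNGAA, the core bound by STAT factors (7.02%). The promoter table gave starts for 4 of the 6 genes. Tcf3 has 1 E-box in its window, and Tcf12 has 1 at each of 2 starts and none at its remaining start, which has 2 CCAAT boxes instead. Id1 and Tcf4 were not matched. These matches describe letters in a short window and say nothing on which factor was bound.

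E-protein transcripts lay above the negative control range at 13 of 14 probe sets, and none of the 14 passed the test. Tcf3, which encodes E12 and E47, had its brightest probe set, 1426297_at, at 7.74, 7.53 and 7.72 in control and 7.21, 7.48 and 7.26 in dKO arrays. The dKO values were all lower, but the gap between dKO replicate 2 and control replicate 2 was narrow. The difference was -0.35 ± 0.14 (SE, log2, limma adjusted p = 0.215). The other Tcf3 probe sets, 1452542_x_at and 1427764_a_at, had differences of -0.17 and -0.17 (adjusted p = 0.559 and 0.667), and for the latter dKO replicate 3, at 7.40, was the highest of the 6 arrays. Over the 3 probe sets averaged, the Tcf3 difference was -0.23 with a 95% interval of -0.48 to 0.02 (adjusted p = 0.246).

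Tcf4, whose product E2-2 directs plasmacytoid dendritic cells, has 6 probe sets, and all had overlapping groups. At the brightest, 1416724_x_at, control arrays read 9.97, 9.91 and 10.17 and dKO arrays 9.94, 9.97 and 9.93. The difference was -0.07 ± 0.13 (SE, log2, limma adjusted p = 0.823), with a 95% interval of -0.38 to 0.24. Over the 6 probe sets the differences ran from -0.12 to 0.20, with 5 below 0, and the smallest adjusted p was 0.586. The probe set 1416725_at lay in the negative control range in both groups, at 3.50 and 3.45, so it does not measure the gene. Averaged over its probe sets Tcf4 differed by -0.02, with an interval of -0.27 to 0.23.

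Tcf12, which encodes HEB, a partner of E2A in T cell development, had the widest range of differences among the 3 E-protein genes, over 5 probe sets. The brightest, 1427670_a_at, read 8.94, 8.92 and 8.74 in control and 9.0, 9.11 and 9.19 in dKO arrays, a small difference of 0.23 ± 0.13 (SE, log2, limma adjusted p = 0.381) with groups that did not overlap. The probe sets 1439209_at and 1439619_at went the other way. At 1439209_at control arrays read 7.56, 7.24 and 7.48 and dKO arrays 6.67, 6.51 and 7.21. At 1439619_at they read 6.26, 5.83 and 6.02 against 5.21, 5.67 and 5.25. In each the dKO values were all lower, with differences of -0.63 ± 0.21 and -0.66 ± 0.19 (SE, log2) that did not pass (adjusted p = 0.135 and 0.0887). The remaining probe sets, 1421908_a_at and 1446294_at, had overlapping groups and differences of -0.06 and -0.17. The probe sets of Tcf12 therefore disagree in sign, and their mean gave -0.26 with an interval of -0.58 to 0.07 (adjusted p = 0.316).

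**Figure D2:**
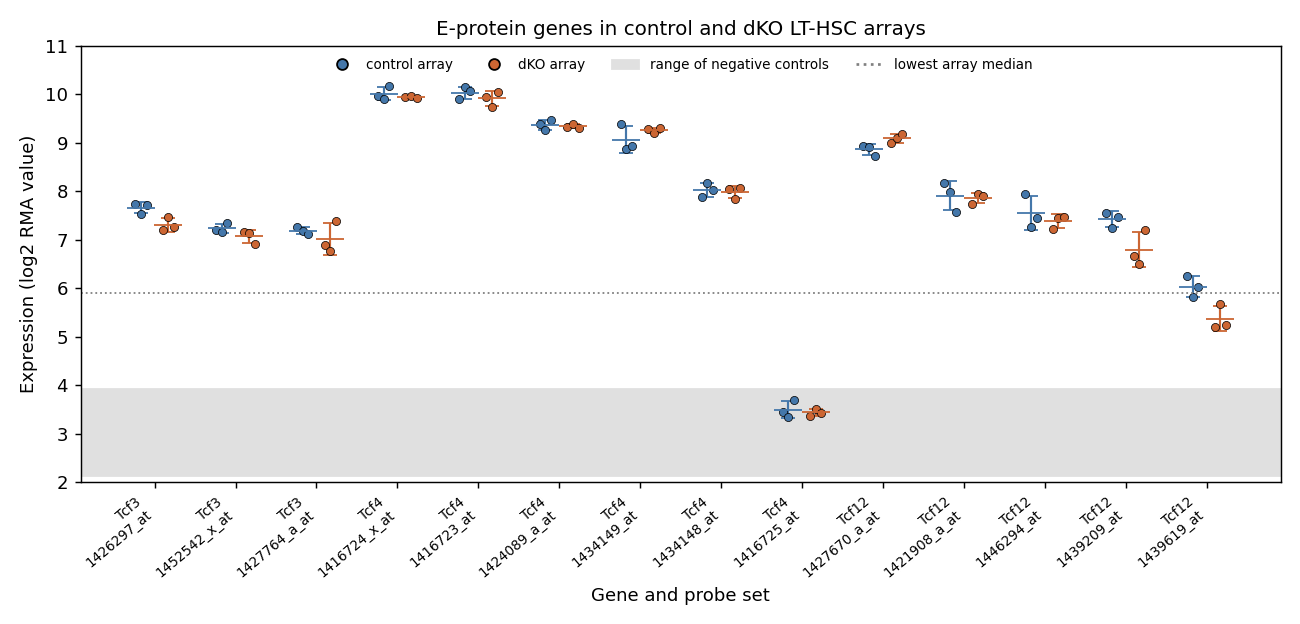
Log2 RMA values of the 14 E-protein probe sets in the 3 control and 3 dKO arrays, with means, SD whiskers, the negative control range in grey and the lowest array median dotted. Control and dKO groups overlap at 9 of the 14 probe sets, the lowest Tcf4 probe set sits in the grey band, and the last pair of Tcf12 probe sets have all dKO points below the control points.

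The changes of Id genes and of their E-protein partners can be set side by side by their intervals, though the difference between them was not tested. Over the 14 E-protein probe sets the differences ran from -0.66 to 0.23, with 12 below 0. The highest upper limit of their 95% intervals was 0.60. Several of the 12 lay so near 0 that their sign depended on scaling. With each array centred on its median, Tcf4 1424089_a_at, 1434148_at and 1416725_at turned positive, as did Tcf12 1421908_a_at (0.036, 0.018, 0.007 and 0.006). The intervals of Tcf3 1426297_at and of Tcf12 1439209_at and 1439619_at, which are not adjusted over the array, lay wholly below 0. The lower limit was 0.72 for Id1 and 2.53, 4.55 and 0.43 for the Id2 probe sets 1422537_a_at, 1435176_a_at and 1453596_at, so the interval of the last overlaps those of E-protein probe sets. The intervals of E-protein probe sets reached down to -1.12, at Tcf12, so a fall of 1 log2 unit of some Tcf12 transcripts lies within the error of these arrays.

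**Figure D3:**
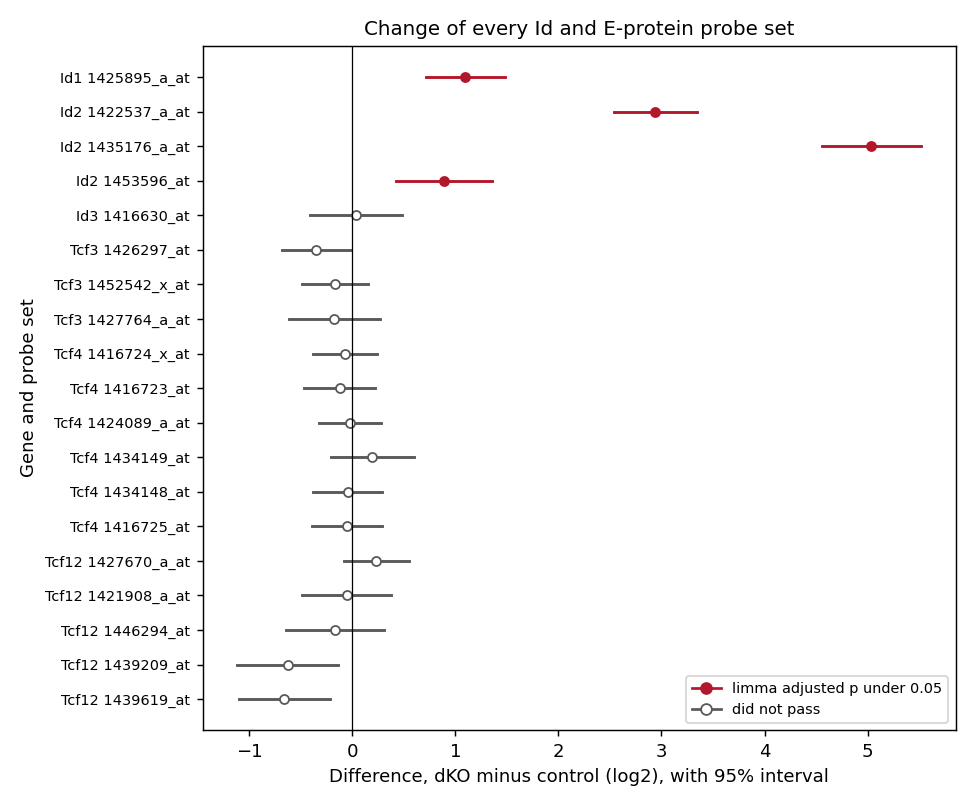
Difference of each of the 19 probe sets, dKO minus control on the log2 scale, with limma's 95% interval. Filled red points passed an adjusted p of 0.05 and open points did not. The 4 red points, for Id1 and Id2, have intervals above 0.4, and those of Id3 and Tcf4 all cross 0. The intervals of Tcf3 1426297_at and of Tcf12 1439209_at and 1439619_at lie below 0.

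Genes around this system were counted in 6 lists with 90 genes, of which 88 were measured. By 1 probe set a gene, 7 rose and 3 fell, beside 8.05% of all genes called in either direction (4.49% up, 3.56% down). The median difference over the 88 was 0.04, beside 0.01 over all genes. Upstream of Id genes lie BMP and TGF-beta receptors and their SMAD effectors, and of 28 such genes 2 rose and 2 fell (median -0.00). Among those that did not pass, 3 had an unadjusted limma p under 0.05. Bmpr2 and Smad1 differed by -0.63 and -0.48 (adjusted p = 0.0505 and 0.0965), and Acvr1 by 0.57 (adjusted p = 0.221). Tgfb1, the TGF-beta1 ligand, rose by 1.15 ± 0.15 (SE, log2, limma adjusted p = 0.00802), and Tgfbr2, its type II receptor, by 1.06 ± 0.22 (adjusted p = 0.0324). Acvr2b, an activin receptor, fell by 1.19 ± 0.15 (adjusted p = 0.0078). Smad4, the SMAD shared by both branches, fell by 0.62 ± 0.14 (adjusted p = 0.0475). Not all of these calls were firm. Smad4 did not pass in any of the 6 fits that left out an array (adjusted p to 0.135), and Tgfbr2 passed only without dKO replicate 3 (to 0.105 otherwise). Averaged over their probe sets, Tgfb1, Tgfbr2 and Smad4 changed by 0.63, 0.52 and -0.35 and did not pass.

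The DNA-binding partners of E proteins in stem cells are Tal1 and Lyl1, which join Lmo2, Ldb1 and Gata factors in 1 complex. Of 16 genes of this list 1 rose and 1 fell (median 0.09). Among those that did not pass, 3 had an unadjusted limma p under 0.05. Runx1, Gata1 and Lyl1 differed by 0.54, 0.66 and 0.36 (adjusted p = 0.084, 0.145 and 0.229). Gata2, a factor required by stem cells, rose from 10.75 ± 0.09 to 11.38 ± 0.11 (SD, n = 3 each), a change of 0.63 ± 0.13 (SE, log2, limma adjusted p = 0.0363). Ldb1, the scaffold that joins such complexes, fell from 9.75 ± 0.13 to 8.90 ± 0.04, a change of -0.85 ± 0.13 (adjusted p = 0.0142). Tal1, Lyl1 and Lmo2 had differences of 0.08, 0.36 and 0.03 that did not pass. In none of the 6 fits that left out an array did Gata2 pass (adjusted p to 0.111), and Ldb1 did not without dKO replicate 1 (0.0544).

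Of 23 measured genes that E proteins are known to activate in early lymphoid cells, 3 rose and 0 fell (median -0.02). They were Cdkn1a, the p21 inhibitor (3.05 ± 0.30 SE, log2, limma adjusted p = 0.00383), Socs3, which restrains cytokine receptors (2.84 ± 0.38, adjusted p = 0.00842), and Hes1, the Notch-induced HLH repressor (0.84 ± 0.14, adjusted p = 0.0189). These 3 are controlled by many other factors. Among the 20 that did not pass, 4 had an unadjusted limma p under 0.05, and all 4 were lower in dKO arrays. They were Foxo1 and Gfi1, at -1.16 and -1.59 (adjusted p = 0.0522 and 0.0975), and Dntt and Rag2, which act in antigen receptor gene rearrangement, at -0.49 and -0.56 (adjusted p = 0.152 and 0.161). The groups of these 4 did not overlap, beside 27.4% of all probe sets, and genes picked by a small p tend not to overlap. Vpreb1, a part of the pre-B cell receptor, differed by -1.03 with wide spread (adjusted p = 0.408), while the B cell factors Ebf1 and Pax5 differed by 0.19 and 0.20 and Rag1 and Igll1 by -0.14 and -0.02. The Hes1 call was lost with any array but dKO replicate 2 left out (up to 0.0673). One of the 3 Socs3 probe sets, 1416576_at, had a difference of 0.53 that did not pass.

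Other HLH repressors gave 2 rises among 9 genes (median 0.20). Bhlhe40, an orange-domain repressor induced by many stimuli, rose from 6.50 ± 0.37 to 9.57 ± 0.14 (SD, n = 3 each), by 3.07 ± 0.21 (SE, log2, limma adjusted p = 0.00124), and Hes1 stands in this list too. Its relative Bhlhe41 differed by 0.01. Among 10 genes for the stability of Id and E proteins and for E-protein cofactors, 0 passed, and 2 had an unadjusted limma p under 0.05. These were Wdr48, the partner of the Id deubiquitinase Usp1 (-0.63, adjusted p = 0.115), and the ubiquitin ligase Huwe1 (-0.35, adjusted p = 0.201). A dimmer Wdr48 probe set, 1426723_at, was lower by 0.71 past the threshold. The mean over all Wdr48 probe sets passed too, with a difference of -0.45 (limma adjusted p = 0.0446). Of the HMG-box factors with the shared old names 0 of 3 passed, with 1 at an unadjusted p under 0.05, and Lef1, Tcf7l1 and Tcf7l2 differed by 0.81, -0.44 and 0.14 (adjusted p = 0.0966, 0.357 and 0.795).

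**Figure D4:**
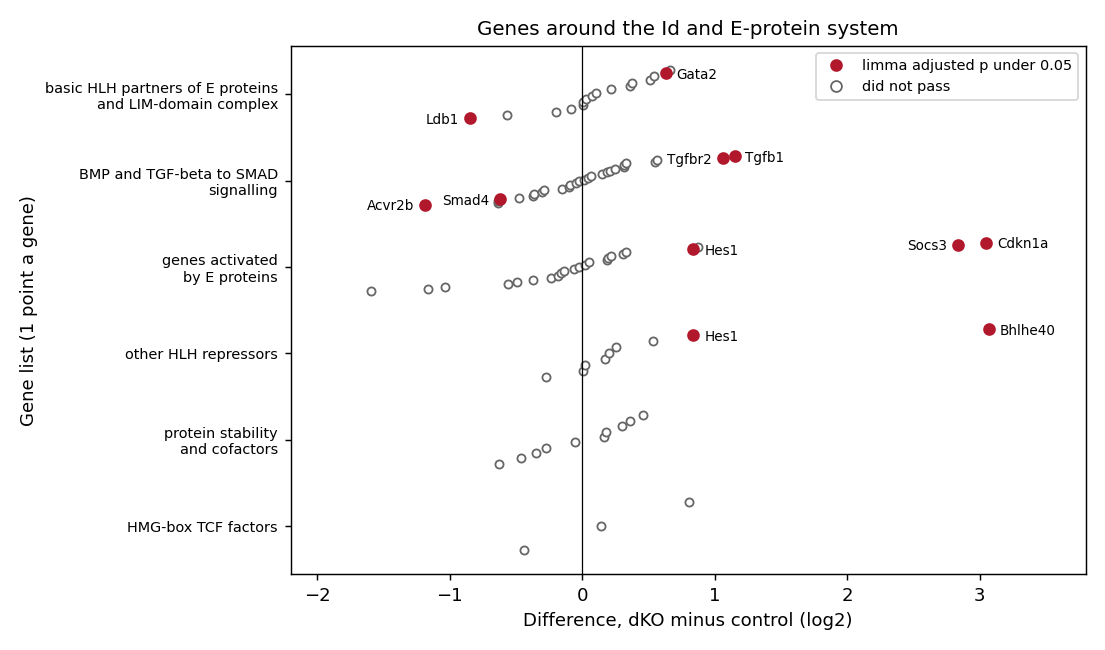
Difference of each gene of the 6 lists, dKO minus control on the log2 scale, 1 point a gene by its probe set with the highest mean. Named red points passed an adjusted p of 0.05. Bhlhe40, Cdkn1a and Socs3 lie near 3, Acvr2b and Ldb1 near -1, and Hes1 appears in 2 lists.

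The profile most like that of Id2 over the 6 arrays, by the root mean square distance after centring each gene on its own mean, was that of Itgax, the integrin CD11c of dendritic and natural killer cells, at a distance of 0.14 log2 units. Slfn2, an interferon-induced Schlafen gene, and S100a6, a calcium-binding protein, followed at 0.15 and 0.18. Itgax went from 4.42 ± 0.31 to 7.28 ± 0.32 (SD, n = 3 each), Slfn2 from 7.09 ± 0.31 to 9.95 ± 0.05 and S100a6 from 8.34 ± 0.11 to 11.34 ± 0.08. The likeness rests mostly on the step between the groups. For Tcf3, the E-protein gene with the smallest p by its probe set with the highest mean, the nearest profiles were Ankrd10, Gigyf2 and Pigm at 0.03, 0.04 and 0.04, and these 3 had differences of -0.32, -0.30 and -0.31 that did not pass.

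Id2 is abundant in natural killer, innate lymphoid and dendritic cells, so their markers were read beside it. Over the array 4.49% of genes rose and 3.56% fell, and each count here stands beside these shares. Of 9 measured natural killer, innate lymphoid and T cell markers 0 rose and 1 fell. This was Rora, a nuclear receptor also read clearly in control cells, with a log2 change of -1.74 ± 0.28 (SE, limma adjusted p = 0.0158). The mean level of that list, Rora included, was 5.50 to 5.59 over the control and 5.49 to 5.61 over the dKO arrays. Of the 8 that did not pass, Il2rb, a receptor chain for interleukins 2 and 15, was the only gene with an unadjusted limma p under 0.05. Its difference was 0.68 (adjusted p = 0.197), and its groups did not overlap, beside 27.4% of all probe sets. Ncr1, the defining natural killer receptor, was in the negative control range in both groups, and Cd3e read 5.32 and 5.59, under the array medians. Of 10 dendritic cell markers 1 rose, Itgax, and 0 fell, and the median difference over the list was -0.02. The mean over the list, Itgax included, ran from 5.48 to 5.93 over the controls and from 5.93 to 6.02 over the dKO arrays. Siglech, which marks the plasmacytoid cells that depend on Tcf4, differed by -0.11 (adjusted p = 0.824). B cell markers gave 0 limma calls of 5, also 0 at an unadjusted p under 0.05, with list means of 5.08 to 5.26 and 5.21 to 5.61.

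The marker counts that follow stand beside the same 4.49% of genes that rose and 3.56% that fell. Of 6 megakaryocyte and platelet genes 3 rose, Ppbp, Itga2b and Pf4, by 5.67, 1.16 and 1.11 (limma adjusted p = 5.11e-04, 0.0104 and 0.023), and Vwf fell by 1.04 (adjusted p = 0.0162). Gp1bb and Gp9 differed by -0.23 and 0.20 and did not pass. The mean over the list, Ppbp with its large rise included, lay at 8.05 to 8.30 in the controls and at 9.19 to 9.51 in the dKO arrays. Of 8 stem cell markers 0 rose and 4 fell, among them Tek, the receptor Tie2, by 2.25 ± 0.18 (SE, log2). The mean over these genes lay at 9.66 to 9.76 in the controls, above the 8.57 to 9.04 of the dKO arrays. Erythroid markers gave 1 fall of 4 genes, Klf1, and list means of 5.62 to 5.97 and 5.04 to 5.54. Granulocyte and monocyte markers gave 0 limma calls of 11, with 1 at an unadjusted p under 0.05, and their list mean ranged from 6.44 to 7.37 in control and from 5.72 to 6.87 in dKO arrays. The part of these shifts, and of the rise of Cd48, in the Id2 and Id1 changes was not tested.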

How the data were processed

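The deposited values are log2 expression values that the authors made with RMA, per the submitters' processing notes, which give no version or settings. The log2 scale was read from their range, 1.49 to 13.85. RMA scales arrays to each other, so changes are relative, and it compresses those of dim probe sets. Probe sets were named through the platform's annotation table. Groups came from the sample titles, and 0 value columns were without a sample. All 45037 non-control probe sets were fitted as dKO minus control with limma 3.58.1 (lmFit, eBayes) in R 4.3.3, with Benjamini-Hochberg adjustment over all of them at 0.05. Intervals are 95% from the moderated fit with 4 residual and 3.19 prior degrees of freedom. Nothing in the labels ties equal replicate numbers together, so no block was used.

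The 6 genes and all lists were chosen with earlier results of these data known. Named genes were every member probe set, up to 4 called genes of a list or the 2 with the smallest p, Id4, Tcf7l1 and Tcf7l2, and the 3 nearest profiles of 1 Id and 1 E-protein gene. Others, markers included, are examples picked with values in view. On simulated data with 200 changed probe sets the test recovered 39% of changes of 1 and 96% of changes of 2 (log2), with 8 false calls among 143. The deposited values gave far more calls, 3146, so the recovered shares need not hold for them. Alternatives were scaling, a filter, the prior, array weights, a replicate block, leaving out each array, probe set means and a floor at background. The number of arrays limits the precision.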

Additional observations from a re-analysis of the deposited data

How the results depend on the processing

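The probe sets 1422537_a_at and 1435176_a_at of Id2 and that of Id1 kept their direction and their side of the threshold under every alternative run. Leaving out 1 array gave 2.82 to 3.06, 4.89 to 5.21 and 1.0 to 1.21 (log2). No Id3 or E-protein probe set passed under any of them. Between 3 and 4 member probe sets passed with 1 array left out. Over the array the count fell from 3146 to between 1338 and 1674 with 1 array left out and to 1530 with the replicate block. The 10 called list genes became 6 to 8 and 6. Counts were higher with the filter, a trended prior and array weights. They were 3679, 4053 and 3243 probe sets and 12, 14 and 12 list genes. Under 6 of the alternatives 1 gene that E proteins activate was called lower, where the main fit called 0. Over all probe sets equal replicate numbers did not deviate together (correlations -0.02, 0.00 and 0.01). Such a correlation cannot show a shared factor that moved only some genes, and this was not tested. With the block Id1 had an adjusted p of 0.0351 and the dim Id2 probe set lost its call (0.0862), as it did with values floored at background (0.0921). The causes were not tested.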
